A study of Carassius auratus with 6 samples.

Results

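Chemokine and chemokine receptor genes were examined in skin of Carassius auratus, the golden-back crucian carp. The study describes this fish as a natural mutant with golden skin on the dorsum and a greenish grey skin type. The library titles give no body region, so colour and region of the body cannot be told apart here. A gene was taken as a member when the product name in the deposited table began with the name of a CC or CXC chemokine, interleukin-8 (IL-8), stromal cell-derived factor 1 (SDF-1), eotaxin or a chemokine receptor, which gave 182 of 83088 gene rows. Skin messenger RNA was sequenced in 6 libraries, 3 from golden and 3 from greenish grey skin, all of female fish without any treatment in their labels. The labels give no age for these libraries and do not say whether the libraries of a colour came from separate fish, so p-values measure the spread between these libraries only. For its small RNA libraries the study took both skin colours from 3 fish, and it does not say this of the messenger RNA libraries. The study asked which RNAs differ between the skin colours of this fish, which it describes as reproducing by gynogenesis. Product names were given by similarity to known proteins and most end in "-like", so a name shows the nearest family and not a proven counterpart. Of the members, 65 were CC ligands, 49 CXC ligands, 38 CC receptors, 19 CXC receptors and 11 atypical receptors. No row was named as an X-C receptor by this rule.

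Chemokines are small secreted proteins that direct the movement of cells along gradients. CC and CXC ligands are told apart by the spacing of cysteines near their start, and their receptors are membrane proteins that signal through G proteins to the cytoskeleton. Inflammatory chemokines such as IL-8 and CXCL10 are induced by cytokines and draw leukocytes to a site of damage or infection, while homeostatic chemokines such as SDF-1 (also called CXCL12), CCL19, CCL21 and CCL25 place cells in healthy tissue. Atypical receptors bind chemokines without the usual G protein signal and remove them from the surroundings. In zebrafish, SDF-1 and its receptors guide migrating cells of the embryo, including germ cells and the lateral line.

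The libraries held between 51493103 and 67595616 counts and between 41685 and 44553 genes with a count. Their composition varied within both colours. Marker genes of skeletal muscle summed to 54323, 31448 and 14015 FPKM in golden libraries 1 to 3 and to 36445, 7290 and 14117 FPKM in greenish grey libraries 1 to 3. FPKM scales the fragment count of a gene to its length and to the size of the library. Fold changes in the text come from scaled counts with a further correction for composition (TMM factors between 0.751 and 1.15), so they can differ from a ratio of FPKM values. As a check of the colour labels, all 10 tested melanophore markers had a fold change below 0 in golden skin, with a median of −2.74 on the log2 scale, and their list summed to between 9.62 and 14.4 FPKM in golden and between 44.5 and 104 FPKM in greenish grey libraries.

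Most of the family was little expressed in this tissue. No count was found in any library for 32 members, 74 had counts but a mean below 1 FPKM over the 6 libraries, and 76 passed this filter and were tested. The tested genes were 24 CC ligands, 31 CXC ligands, 5 CC receptors, 9 CXC receptors and 7 atypical receptors. A mean of at least 10 FPKM was reached by 27 members and a mean of at least 100 FPKM by 6. These 6 were ligands: a pair of CCL21 genes, a pair of SDF-1 genes, a CXCL10 gene and a CCL19 gene. The pair of most abundant CC ligand genes held between 61.5% and 81.8% of all CC ligand FPKM in a library. For CXC ligands the pair of genes highest in each library, which was not the same pair in all libraries, held between 44.1% and 55.7%. The family was thus measured mainly through a few ligand genes, and receptor levels were far lower.

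**Figure D1:**
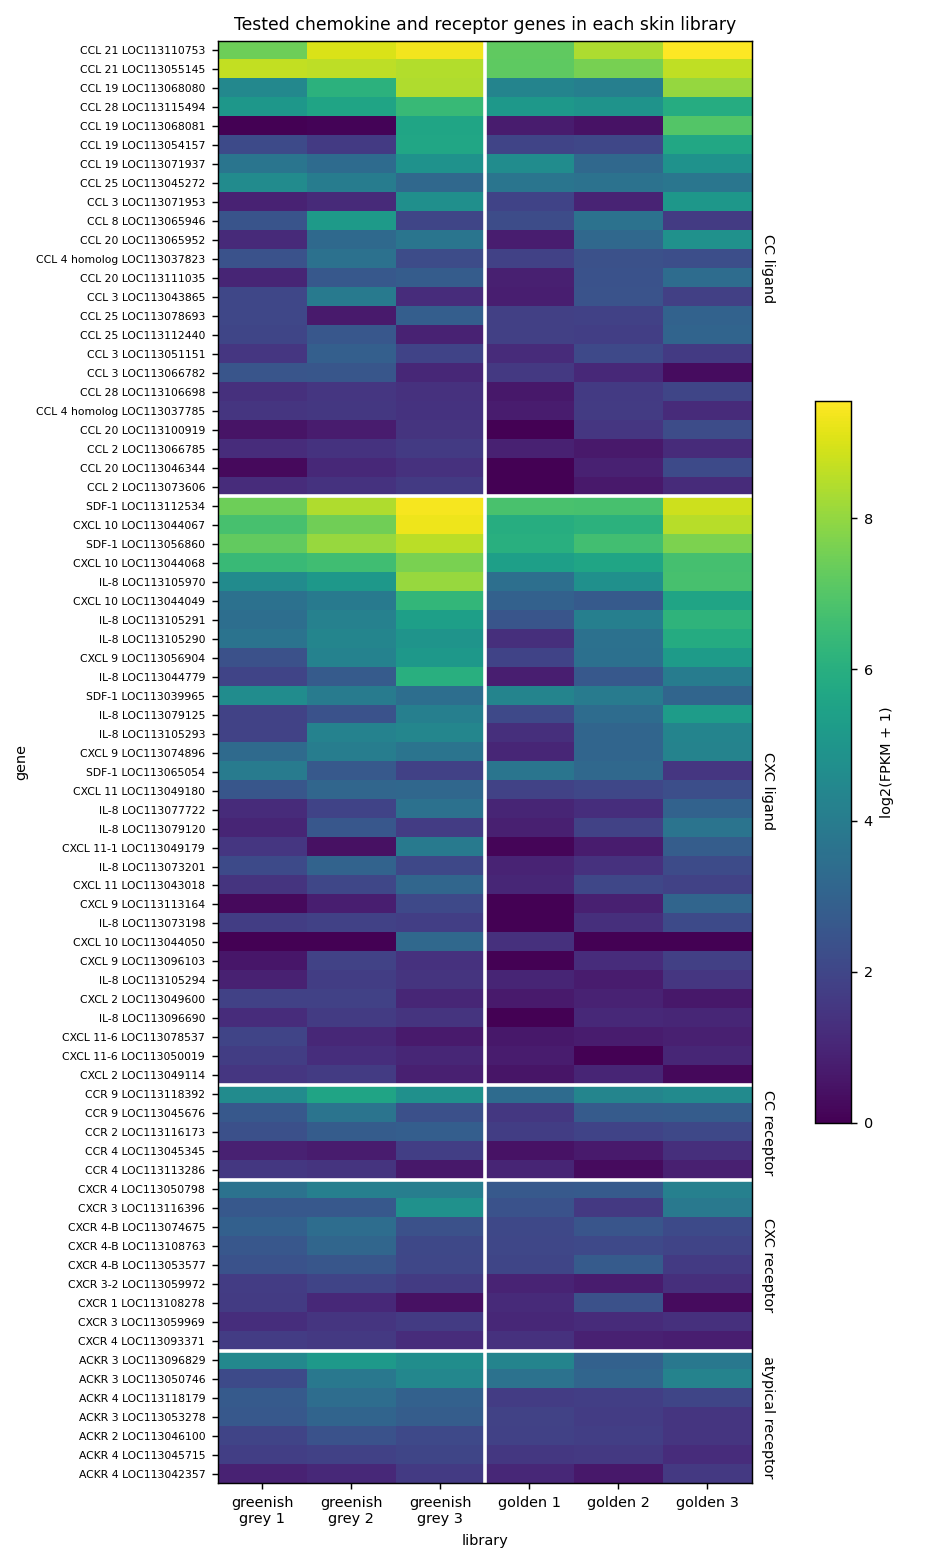
The level of each of the 76 tested genes (rows, grouped by role and ordered by mean level) in each of the 6 libraries (columns), as log2(FPKM + 1) in colour. Bright rows are the CCL21, SDF-1, CXCL10 and CCL19 genes, and the columns of both libraries numbered 3 are bright for CCL19 LOC113068081, which had 47.8 FPKM in greenish grey library 3 and 125 FPKM in golden library 3 but under 1 FPKM in the other 4 libraries.

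Many members lie in tandem groups of like genes. With a gap of at most 100000 bp between neighbours, 104 of the 182 members fell into 34 clusters and 78 lay outside, and 36.5% of the clustered and 48.7% of the other members were tested. Coordinates are on assembly ASM336829v1. A cluster of 7 CXCL10 and CXCL11 genes covered 35.5 kb on chromosome 30 (10573836 to 10609329), with 3 tested genes. Whole clusters could also be almost silent, and the 6 eotaxin, CCL12 and CCL24 genes on chromosome 24 (15084973 to 15178111) had no tested gene, and their highest mean was 0.215 FPKM. The genome of this fish is also duplicated, and how reads matching several copies were counted is not given in the sources used here. The division of reads between near-identical copies is therefore uncertain for all values of single genes. As an example chosen after the values were seen, the CCL2 genes LOC113066785 and LOC113073606 had 1.33, 1.66 and 2.08 FPKM and 1.33, 1.63 and 2.05 FPKM in greenish grey libraries 1 to 3. In golden libraries 1 to 3 they had 0.845, 0.571 and 1.28 FPKM and 0, 0.571 and 1.25 FPKM, so they parted in golden library 1. Both are counted as separate tested members below.

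Across the tested members, levels tended to the lower side in golden skin, but no member passed the test at an adjusted p under 0.05. Of the 76 genes, 57 had a log2 fold change below 0 (75.0%, against 46.8% of all 26421 tested genes) and 19 above 0. The median log2 fold change was −0.59, against 0.03 over all tested genes. Golden skin was lower for 7 members (2.43% of all genes) and higher for 0 (1.98% of all genes) at an unadjusted p under 0.05, and 4 of the 7 were past 2-fold (1.51% of all genes). Every member had an adjusted p of at least 0.9998 in the edgeR quasi-likelihood fit, which called 0% of all genes, and limma on FPKM also called 0 members. DESeq2, run as an alternative, called 1 member, the atypical receptor ACKR4 LOC113118179 (0.781% of all genes with an adjusted p).

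The direction depended in part on single libraries. Without golden library 3 the median was −0.92 with 68 members lower, and without greenish grey library 3 it was −0.31 with 44 members lower. The count past 2-fold dropped to 2 without golden library 2 or greenish grey library 2, and the count at an unadjusted p under 0.05 to 4 and 3. The shares of all genes were not computed for the fits without a library. Counted on scaled counts, the colours did not overlap for 11 members lower in golden skin (5.08% of all genes) and 0 higher (4.99% of all genes). Those 11 included all 7 genes at an unadjusted p under 0.05, among them 5 receptors or atypical receptors.

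Deviations from the colour means correlated between golden and greenish grey libraries by 0.732 for numbers 1 and 3, but by 0.267 for number 2. A fit with the replicate number as a block was set beside the fit without it. With the block, 59 members had a log2 fold change below 0 and the median was −0.63. At an unadjusted p under 0.05 it held 18 members lower (7.02% of all genes) and 2 higher (5.95% of all genes), of which 8 lower (2.63% of all genes) and 2 higher (2.42% of all genes) were past 2-fold. No member reached an adjusted p under 0.05 in the blocked edgeR fit (0.00378% of all genes), with 0.209 as the lowest. In all 3 numbered pairs, 27 members were lower in golden skin (20.0% of all genes) and 4 were higher (19.5% of all genes). The median over members was −0.56, −0.80 and −0.32 in pairs 1 to 3, on the log2 scale. Without pair 1, 2 or 3, the blocked fit held 16, 9 and 18 members at an unadjusted p under 0.05, an alternative chosen after seeing the data. The shares of all genes were not computed for these fits, so these counts cannot be set against them.

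**Figure D2:**
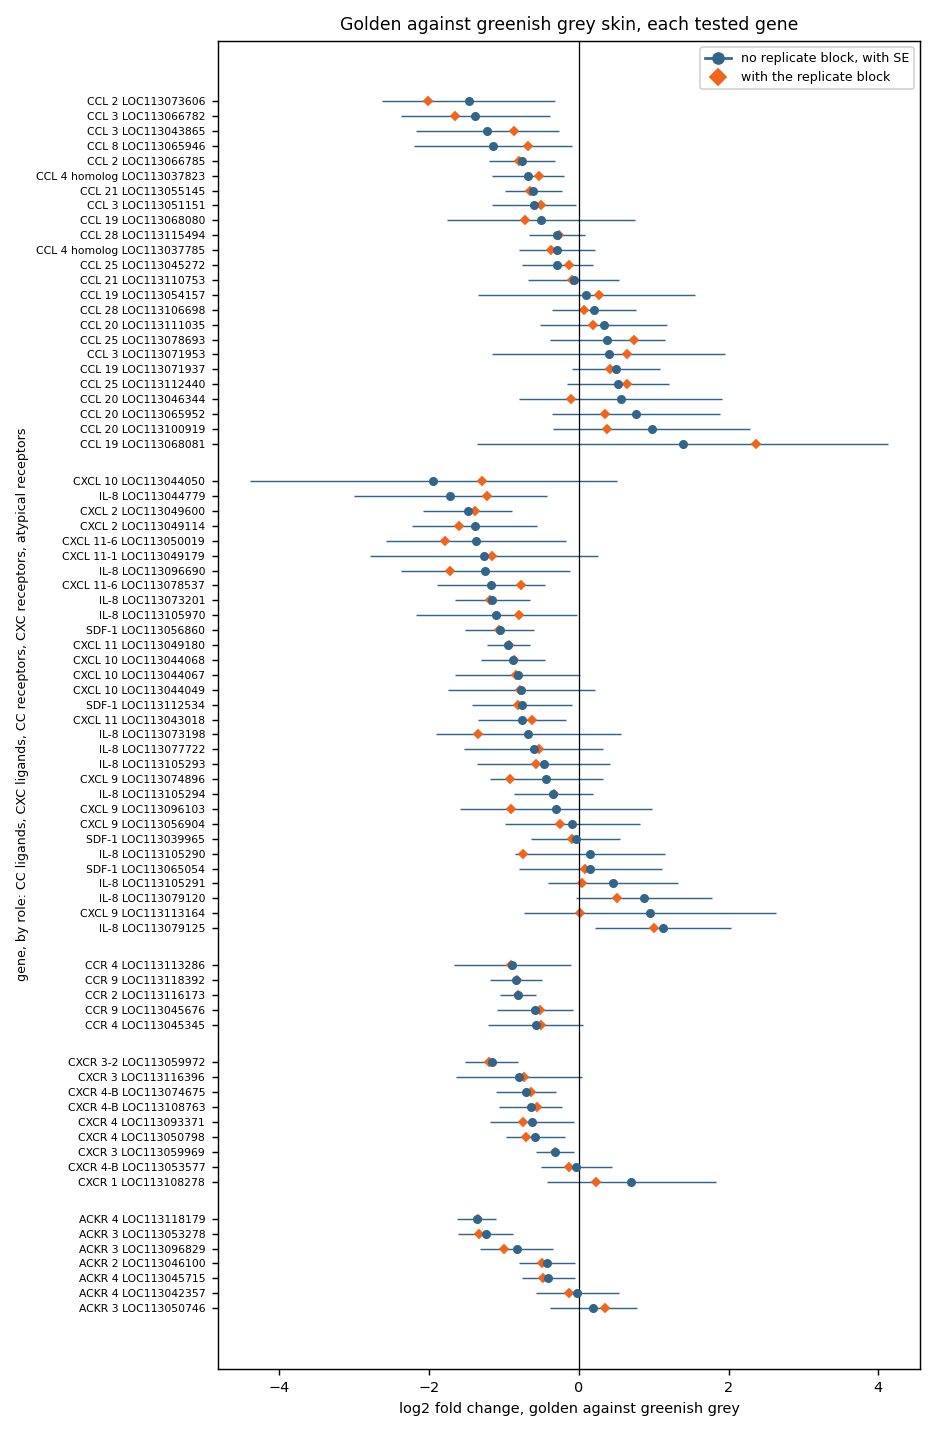
The log2 fold change of golden against greenish grey skin for each tested gene, by role. Circles with bars give the fit without the replicate block and its SE, and diamonds the fit with the block. Of the 76 circles, 57 lie left of 0, and bars are long for genes such as CCL19 LOC113068081 (1.39 ± 2.75, SE) and short for ACKR4 LOC113118179 (−1.36 ± 0.26, SE).

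The roles differed in how they lay around 0. The median log2 fold change was −0.18 for CC ligands (13 lower, 11 higher), −0.75 for CXC ligands (25 lower, 6 higher), −0.81 for CC receptors (5 lower, 0 higher), −0.62 for CXC receptors (8 lower, 1 higher) and −0.42 for atypical receptors (6 lower, 1 higher). CC ligands were thus near the middle of all genes, and the other roles below it. The difference between roles was not tested. In bulk skin, fewer cells of a type and less RNA per cell cannot be told apart.

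The CC ligands were led by CCL21, which in mammals draws CCR7-bearing T cells and dendritic cells to lymphoid tissue. CCL21 LOC113110753 (chromosome 11) was the most abundant member, at 174, 513 and 667 FPKM in greenish grey libraries 1 to 3 and 147, 334 and 747 FPKM in golden libraries 1 to 3. CCL21 LOC113055145 (chromosome 36) had 411, 384 and 345 FPKM in greenish grey and 144, 190 and 391 FPKM in golden libraries. The former was lowest in the libraries numbered 1 and highest in those numbered 3 of both colours, while the latter was even in greenish grey skin and reached that range in golden library 3 alone, so that the colours overlapped for both. Their log2 fold changes were −0.07 ± 0.61 and −0.61 ± 0.38 (SE).

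CCL19, the other ligand of mammalian CCR7, was uneven between libraries. CCL19 LOC113068080 had 20.8, 70.1 and 335 FPKM in greenish grey and 18.9, 16.4 and 259 FPKM in golden libraries. Its neighbour on the same linkage group, CCL19 LOC113068081, had 0, 0.0771 and 47.8 FPKM in greenish grey and 0.676, 0.391 and 125 FPKM in golden libraries. In counts these were 0, 7 and 4069 against 46, 29 and 10927. Both genes were high in the libraries numbered 3 of both colours, and the colours overlapped. CCL19 LOC113068081 had a log2 fold change of 1.39 ± 2.75 (SE), and it was higher in golden skin in each numbered pair. With the replicate block it was 2.37 ± 0.73 (SE), with an edgeR unadjusted p of 0.0193 and an adjusted p of 0.325.

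The remaining CCL19 genes showed the same excess in libraries 3 to a varying extent. CCL19 LOC113054157 (chromosome 35) had 3.45, 2.08 and 49.5 FPKM in greenish grey and 2.92, 3.07 and 52.3 FPKM in golden libraries. CCL19 LOC113071937 (chromosome 5) had 12.1, 9.21 and 27.8 FPKM in greenish grey and 24.1, 8.31 and 27.9 FPKM in golden libraries. For these genes the library number separated the levels more than the colour did. Their log2 fold changes were 0.10 ± 1.45 and 0.50 ± 0.59 (SE). CCR7 itself was represented by 5 genes, none of which passed the filter. The highest CCR7 mean was 0.899 FPKM, at LOC113092793, and the CCR7 genes summed to 1.18, 4.58 and 1.07 FPKM in greenish grey and 0.924, 3.14 and 1.45 FPKM in golden libraries. The CCR7 sum was highest in the libraries numbered 2, whereas CCL19 was highest in those numbered 3.

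CCL28 and CCL25 are ligands of epithelial surfaces in mammals, CCL25 acting through CCR9. CCL28 LOC113115494 (chromosome 15) had 32.5, 47.2 and 85.3 FPKM in greenish grey and 33.4, 28.9 and 58.7 FPKM in golden libraries, with a log2 fold change of −0.29 ± 0.37 (SE). CCL25 LOC113045272 (chromosome 27) had 23.3, 14.99 and 8.30 FPKM in greenish grey and 12.04, 11.2 and 12.5 FPKM in golden libraries. It was thus spread widely in greenish grey skin and nearly level in golden skin, with a log2 fold change of −0.28 ± 0.47 (SE). CCL25 LOC113078693 had 3.06, 0.633 and 6.15 FPKM in greenish grey and 2.53, 2.55 and 7.07 FPKM in golden libraries. CCL25 LOC113112440 (chromosome 2) had 2.94, 4.99 and 0.869 FPKM in greenish grey and 2.48, 2.46 and 7.36 FPKM in golden libraries. Neither gene separated the colours, and their log2 fold changes were 0.38 ± 0.77 and 0.52 ± 0.68 (SE).

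Of the inflammatory CC ligands, CCL3, an attractant of monocytes and lymphocytes in mammals, had 4 tested genes with log2 fold changes from −1.38 to 0.40. CCL3 LOC113066782 (chromosome 50) had 4.80, 4.83 and 1.08 FPKM in greenish grey and 2.02, 1.15 and 0.239 FPKM in golden libraries. It was lower in golden skin in each numbered pair, although the colours overlapped through the low value of greenish grey library 3. The log2 fold change was −1.38 ± 0.998 (SE), and with the replicate block −1.65 ± 0.43 (SE), with an edgeR unadjusted p of 0.0102 and an adjusted p of 0.298. CCL20, which in mammals acts through CCR6, had 10 members, 4 of them tested, with log2 fold changes from 0.33 to 0.97 and the highest level of both colours in libraries 3 for all 4. With the replicate block, 1 of these 4 CCL20 genes had a fold change below 0. The 5 CCR6 genes were all below the filter, with a highest mean of 0.736 FPKM. CCL2, the main monocyte attractant of mammals, had 2 tested genes, with log2 fold changes of −1.47 and −0.75.

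Among the CXC ligands, SDF-1 was represented by 4 genes that fell into an abundant and a scarce pair. SDF-1 LOC113112534 (chromosome 13) had 173, 341 and 688 FPKM in greenish grey and 112, 109 and 452 FPKM in golden libraries. SDF-1 LOC113056860 (chromosome 38) had 152, 271 and 381 FPKM in greenish grey and 64.0, 98.8 and 201 FPKM in golden libraries. Both were lower in golden skin in each numbered pair, and both were highest in the libraries numbered 3, so that golden library 3 overlapped the greenish grey range. For LOC113112534 the log2 fold change was −0.75 ± 0.67 (SE), and with the replicate block −0.81 ± 0.32 (SE), with an edgeR unadjusted p of 0.0466 and an adjusted p of 0.381. For LOC113056860 it was −1.05 ± 0.46 (SE), and with the block −1.07 ± 0.24 (SE), with an edgeR unadjusted p of 0.00569 and an adjusted p of 0.264.

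The scarce SDF-1 genes ran the opposite way over the library numbers. SDF-1 LOC113039965 (chromosome 22) had 23.9, 14.7 and 9.86 FPKM in greenish grey and 18.9, 14.9 and 7.55 FPKM in golden libraries. SDF-1 LOC113065054 (chromosome 47) had 14.8, 5.43 and 2.62 FPKM in greenish grey and 11.99, 8.47 and 1.82 FPKM in golden libraries. Both were highest in the libraries numbered 1 and lowest in those numbered 3, while the abundant pair was highest in those numbered 3. Their log2 fold changes were −0.04 ± 0.60 and 0.16 ± 0.96 (SE). The SDF-1 genes thus did not share the order of the 6 libraries, and the scarce pair lay near 0 between the colours.

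CXCL10, CXCL9 and CXCL11 are induced by interferon in mammals and bind CXCR3 on T cells. CXCL10 LOC113044067 (chromosome 26) had 109, 176 and 624 FPKM in greenish grey and 61.1, 69.8 and 364 FPKM in golden libraries. Its neighbour CXCL10 LOC113044068 had 86.6, 96.9 and 197 FPKM in greenish grey and 40.6, 48.6 and 104 FPKM in golden libraries. A further gene on that chromosome, CXCL10 LOC113044049, had 10.7, 14.1 and 79.1 FPKM in greenish grey and 6.75, 5.59 and 46.5 FPKM in golden libraries. RefSeq annotates LOC113044049, like its scarce neighbour LOC113044050, as a long non-coding RNA, although the deposited table names it after CXCL10. LOC113044050 had 0, 0 and 8.43 FPKM in greenish grey and 1.52, 0 and 0 FPKM in golden libraries, with a log2 fold change of −1.94 ± 2.45 (SE). LOC113044067, LOC113044068 and LOC113044049 were highest in the libraries numbered 3 of both colours and lower in golden skin in each numbered pair.

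Their log2 fold changes lay close together, at −0.82 ± 0.83 for LOC113044067, −0.88 ± 0.42 for LOC113044068 and −0.76 ± 0.99 (SE) for LOC113044049. With the replicate block they were −0.84 ± 0.24, −0.86 ± 0.21 and −0.78 ± 0.23 (SE), with edgeR unadjusted p-values of 0.0151, 0.00743 and 0.0162 and adjusted p-values of 0.317, 0.282 and 0.318. CXCL9 had 4 tested genes, 3 with a fold change below 0, from −0.43 to 0.95 on the log2 scale. CXCL11 LOC113049180 (chromosome 30, 10607693 to 10609329) had 4.83, 7.82 and 8.09 FPKM in greenish grey and 2.66, 3.10 and 3.96 FPKM in golden libraries. Every golden library lay below every greenish grey library for this gene. It had a log2 fold change of −0.94 ± 0.29 (SE), with an edgeR unadjusted p of 0.0146 and an adjusted p of 0.9998. Without golden library 2, greenish grey library 2 or greenish grey library 3, that unadjusted p was 0.0513, 0.0507 or 0.0523.

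IL-8 (CXCL8), the chief neutrophil attractant, was the most numerous product, with 22 members and 12 tested genes. Of these, 8 had a log2 fold change below 0, and values ran from −1.71 to 1.13. IL-8 LOC113105970 (chromosome 1) was the most abundant, at 23.3, 33.1 and 265 FPKM in greenish grey and 10.3, 26.5 and 108 FPKM in golden libraries. IL-8 LOC113044779 (chromosome 26) had 2.87, 5.73 and 63.2 FPKM in greenish grey and 0.761, 5.18 and 15.02 FPKM in golden libraries. Both were highest in the libraries numbered 3, with the larger excess in greenish grey library 3. With the replicate block their log2 fold changes were −0.79 ± 0.27 and −1.23 ± 0.46 (SE), with edgeR unadjusted p-values of 0.0282 and 0.0385 and adjusted p-values of 0.347 and 0.368. Without the block they were −1.10 ± 1.07 and −1.71 ± 1.29 (SE).

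Other IL-8 genes moved differently. IL-8 LOC113079125, on an unplaced scaffold with a cluster of 7 IL-8 genes, had 2.72, 4.35 and 16.6 FPKM in greenish grey and 3.31, 9.27 and 38.0 FPKM in golden libraries. It was higher in golden skin in each numbered pair, with a log2 fold change of 1.13 ± 0.90 (SE). With the block it was 1.01 ± 0.24 (SE), with an edgeR unadjusted p of 0.00719 and an adjusted p of 0.280. Of the 5 IL-8 genes that cover 60.7 kb of chromosome 7, 4 were tested. IL-8 LOC113105291 had 9.86, 17.3 and 41.1 FPKM in greenish grey and 4.67, 16.4 and 72.3 FPKM in golden libraries. IL-8 LOC113105290 had 11.54, 19.3 and 29.6 FPKM in greenish grey and 1.44, 10.8 and 56.9 FPKM in golden libraries. For both neighbours golden skin held the lowest and the highest library. Their log2 fold changes were 0.46 ± 0.87 and 0.16 ± 0.999 (SE), and −0.74 ± 0.70 (SE) for LOC113105290 with the block.

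The other named IL-8 genes were scarcer, and 6 of these 7 had a log2 fold change below 0. IL-8 LOC113105293 had 2.70, 17.8 and 19.8 FPKM in greenish grey and 1.43, 7.76 and 18.9 FPKM in golden libraries. IL-8 LOC113073201 had 3.46, 7.25 and 3.25 FPKM in greenish grey and 0.944, 1.57 and 3.52 FPKM in golden libraries. The colours overlapped for both, in the latter through golden library 3 alone. IL-8 LOC113073201 had a log2 fold change of −1.16 ± 0.50 (SE), and IL-8 LOC113105293 of −0.47 ± 0.89 (SE). IL-8 LOC113079120, LOC113077722, LOC113073198, LOC113105294 and LOC113096690 had log2 fold changes of 0.87, −0.60, −0.67, −0.34 and −1.25, with SEs from 0.53 to 1.24.

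CXCL2, another neutrophil attractant of mammals, had 2 genes, both scarce. CXCL2 LOC113049600 (chromosome 30) had 2.59, 2.63 and 1.03 FPKM in greenish grey and 0.625, 0.877 and 0.519 FPKM in golden libraries. CXCL2 LOC113049114 (chromosome 30) had 1.84, 2.15 and 0.768 FPKM in greenish grey and 0.468, 1.01 and 0.149 FPKM in golden libraries. The colours did not overlap for the former, and the latter overlapped between golden library 2 and greenish grey library 3. LOC113049600 had a log2 fold change of −1.48 ± 0.60 (SE), with an edgeR unadjusted p of 0.0446 and an adjusted p of 0.9998. That unadjusted p was between 0.0708 and 0.130 when any library except greenish grey library 3 was left out. LOC113049114 had −1.39 ± 0.84 (SE), and with the block −1.60 ± 0.54 (SE), with an edgeR unadjusted p of 0.0274 and an adjusted p of 0.346.

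All 5 tested CC receptors had a log2 fold change below 0 in golden skin. CCR9, the receptor of CCL25 on lymphocytes of mammals, was the most abundant of them. CCR9 LOC113118392 (chromosome 2, 17293708 to 17295958) had 23.3, 46.6 and 26.8 FPKM in greenish grey and 9.10, 19.2 and 22.4 FPKM in golden libraries. Every golden library lay below every greenish grey library, both on scaled counts and in FPKM. In FPKM the margin was narrow, between golden library 3 and greenish grey library 1. The log2 fold change was −0.84 ± 0.35 (SE), with an edgeR unadjusted p of 0.0487 and an adjusted p of 0.9998. That p was over 0.05 when any library except greenish grey library 3 was left out, with 0.170 as the highest without greenish grey library 2.

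CCR2, which in mammals brings monocytes out of the marrow in answer to CCL2, had 4 members and 1 tested gene. CCR2 LOC113116173 (chromosome 16, 12510583 to 12513043) had 3.98, 5.82 and 6.26 FPKM in greenish grey and 2.30, 2.77 and 3.16 FPKM in golden libraries. The colours were separate, and in both colours the level was lowest in library 1. The log2 fold change was −0.81 ± 0.24 (SE), with an edgeR unadjusted p of 0.0142 and an adjusted p of 0.9998, and the unadjusted p was 0.0510 without greenish grey library 3. The pair of tested CCR4 genes, receptors of CCL17 and CCL22 in mammals, had log2 fold changes of −0.57 and −0.88, and the colours overlapped for both. None of the 3 CCR1 genes passed the filter, and the 6 CCR8 genes were at 0 FPKM in all 6 libraries.

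CXCR4, the signalling receptor of SDF-1, had 5 tested genes in all, 3 of them named CXCR4-B, and each had a log2 fold change below 0. CXCR4 LOC113050798 (chromosome 31) had 11.2, 16.3 and 15.8 FPKM in greenish grey and 5.28, 5.56 and 16.9 FPKM in golden libraries. Golden library 3 alone reached the greenish grey range. The gene had a log2 fold change of −0.58 ± 0.40 (SE). CXCR4-B LOC113074675 had 6.67, 9.69 and 4.22 FPKM in greenish grey and 3.23, 4.79 and 3.44 FPKM in golden libraries, lower in golden skin in each numbered pair. It had a log2 fold change of −0.70 ± 0.39 (SE), and with the block −0.64 ± 0.22 (SE), with an edgeR unadjusted p of 0.0292 and an adjusted p of 0.349.

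The other CXCR4 genes, in the order given here, had means of 4.25, 3.85 and 1.45 FPKM over the 6 libraries. CXCR4-B LOC113108763 (chromosome 9) had 5.05, 7.999 and 3.16 FPKM in greenish grey and 3.13, 3.31 and 2.84 FPKM in golden libraries. CXCR4-B LOC113053577 (chromosome 34) had 4.36, 4.81 and 3.11 FPKM in greenish grey and 3.01, 5.71 and 2.12 FPKM in golden libraries. CXCR4 LOC113093371 (chromosome 6) had 2.28, 1.99 and 1.34 FPKM in greenish grey and 1.56, 0.815 and 0.750 FPKM in golden libraries. The colours overlapped for each of these, and both CXCR4-B genes were highest in the libraries numbered 2. Log2 fold changes were −0.64 ± 0.42, −0.03 ± 0.47 and −0.62 ± 0.57 (SE).

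**Figure D3:**
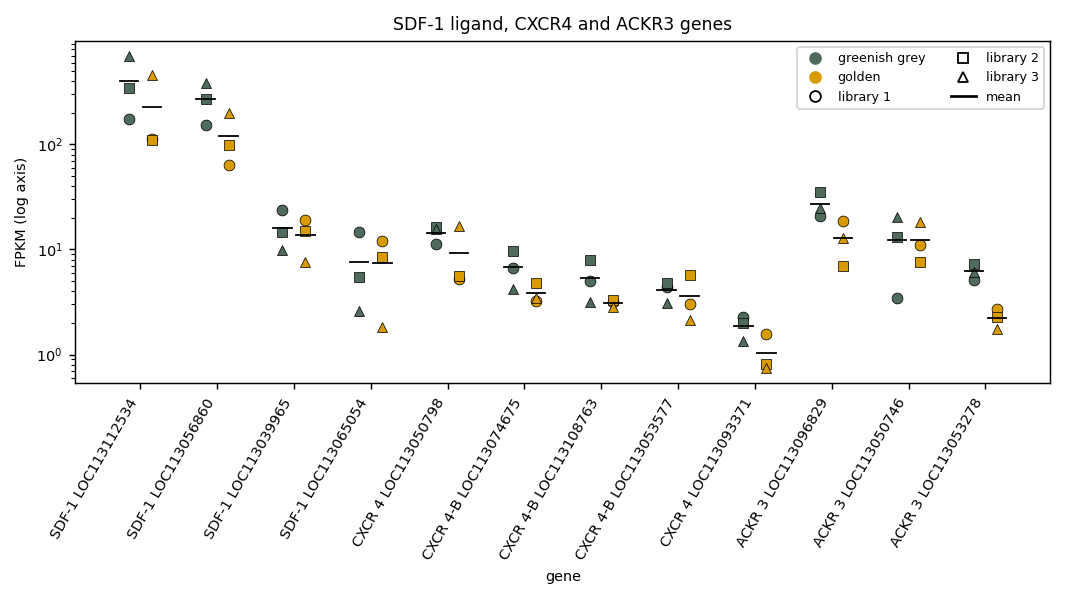
Levels of the SDF-1, CXCR4 and ACKR3 genes in FPKM on a log axis, with a symbol for each library number, grey-green for greenish grey and yellow for golden skin, and a bar at each mean. The abundant SDF-1 genes lie between 64.0 and 688 FPKM with golden symbols below greenish grey symbols of the same number, the scarce SDF-1 genes interleave, and ACKR3 LOC113053278 is separated between the colours (1.75 to 2.73 against 5.12 to 7.35 FPKM).

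CXCR3, the receptor of CXCL9, CXCL10 and CXCL11, had its most abundant gene in CXCR3 LOC113116396 (chromosome 16), with 5.16, 5.16 and 27.1 FPKM in greenish grey and 4.34, 2.02 and 13.5 FPKM in golden libraries. As for the CXCL10 genes, both libraries numbered 3 were highest. Its log2 fold change was −0.80 ± 0.84 (SE), and with the block −0.73 ± 0.29 (SE), with an edgeR unadjusted p of 0.0490 and an adjusted p of 0.385. CXCR3-2 LOC113059972 (chromosome 41, 6774661 to 6778575) had 2.23, 2.91 and 2.14 FPKM in greenish grey and 0.914, 0.643 and 1.42 FPKM in golden libraries. The colours were separate for CXCR3-2, without an excess in the libraries numbered 3 of greenish grey skin. Its log2 fold change was −1.16 ± 0.35 (SE), with an edgeR unadjusted p of 0.0150 and an adjusted p of 0.9998, and the unadjusted p was 0.0519 without greenish grey library 2. The IL-8 receptors CXCR1 and CXCR2 were scarce: 1 of 4 CXCR1 genes was tested, with a log2 fold change of 0.70, and the CXCR2 gene was below the filter. CXCR5, the receptor of B cell follicles, had 2 genes below the filter.

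The lowest unadjusted p of any member was found at an atypical receptor. ACKR4, which in mammals removes CCL19, CCL21 and CCL25, had 3 tested genes. ACKR4 LOC113118179 (chromosome 2, 16954702 to 16961557) had 5.50, 9.62 and 6.82 FPKM in greenish grey and 2.22, 2.43 and 3.03 FPKM in golden libraries. The row ID of this gene had no match in RefSeq, so its RefSeq gene type is not known here. Every golden library was well below the lowest greenish grey library. The log2 fold change was −1.36 ± 0.26 (SE), with an edgeR unadjusted p of 0.00163 and an adjusted p of 0.9998. With the block it was −1.34 ± 0.23 (SE) with an adjusted p of 0.209, and DESeq2 gave −1.37 with an adjusted p of 0.00236. Without any one of the libraries in turn it lay between −1.48 and −1.16. ACKR4 LOC113045715 and LOC113042357 had log2 fold changes of −0.40 ± 0.35 and −0.02 ± 0.55 (SE), so the difference was not seen to the same extent at the other copies, which was not tested.

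ACKR3, which binds and removes SDF-1, had 3 tested genes of differing pattern. ACKR3 LOC113053278 (chromosome 34, 14611809 to 14618669) had 5.12, 7.35 and 6.12 FPKM in greenish grey and 2.73, 2.27 and 1.75 FPKM in golden libraries. The colours were separate. Its log2 fold change was −1.24 ± 0.36 (SE), with an edgeR unadjusted p of 0.0124 and an adjusted p of 0.9998, and with the block −1.33 ± 0.28 (SE) with an adjusted p of 0.251. ACKR3 LOC113096829 (chromosome 6) was the most abundant, at 20.9, 34.9 and 24.97 FPKM in greenish grey and 18.6, 6.91 and 13.0 FPKM in golden libraries. ACKR3 LOC113050746 (chromosome 31) had 3.46, 13.1 and 20.5 FPKM in greenish grey and 11.1, 7.56 and 18.4 FPKM in golden libraries. The former was lower in every golden library on the FPKM scale, but overlapped on scaled counts, and the latter overlapped on both scales. Their log2 fold changes were −0.83 ± 0.49 and 0.19 ± 0.58 (SE). ACKR2, a scavenger of inflammatory CC ligands, had 1 tested gene with a log2 fold change of −0.42.

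An excess in the libraries numbered 3 recurred among the members. FPKM lacks the TMM correction, whose factors were 1.15 for both libraries numbered 3. For the libraries numbered 1 they were 0.751 in golden and 0.916 in greenish grey skin. Counted in FPKM, the library numbered 3 was highest in both colours for 36 of the 76 tested members, against 36.4% of all tested genes. These included all 4 tested CCL19 genes, all 4 tested CCL20 genes, 3 of 4 CXCL10 genes and 7 of 12 IL-8 genes, and also 2 CC, 2 CXC and 2 atypical receptors. Whether ligands differed from receptors in this was not tested. Cytokine genes ran the same way. The 33 listed genes, annotated as interleukin-1 beta, tumor necrosis factor, interleukin-6, interleukin-10 or interleukin-17, summed to 19.9, 33.5 and 103 FPKM in greenish grey and 11.55, 21.7 and 74.6 FPKM in golden libraries. An interleukin-1 beta gene, LOC113054665, had 1.32, 3.03 and 26.5 FPKM in greenish grey and 0.920, 3.55 and 21.4 FPKM in golden libraries, and was chosen after its values were seen. Of the 8 tested cytokine genes, 7 had a fold change below 0, with a median log2 fold change of −0.67. At an unadjusted p under 0.05, 1 was lower (2.43% of all genes), interleukin-17D LOC113108806, with −1.49 ± 0.47 (SE).

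Leukocyte markers did not follow the ligands over the library numbers. The 16 matched pan-leukocyte genes summed to 187, 269 and 123 FPKM in greenish grey and 124, 229 and 106 FPKM in golden libraries, highest in the libraries numbered 2 and lowest in those numbered 3. The median over their 7 tested genes was −0.24 on the log2 scale, and 6 lay below 0. Neutrophil markers summed to 85.7, 138 and 68.8 FPKM in greenish grey and 56.3, 256 and 161 FPKM in golden libraries, with 1 tested gene below 0 and 6 above and a median of 0.51. Macrophage markers summed to 74.6, 101 and 65.8 FPKM in greenish grey and 44.3, 34.7 and 50.7 FPKM in golden libraries. In FPKM the colours were separate for the macrophage sum. FPKM lacks the TMM correction, whose factor was lowest for golden library 1 (0.751) and 1.15 for greenish grey library 3. That correction would raise the former sum and lower the latter, so the separation in FPKM cannot be taken to hold after it. Separation of the macrophage sum after TMM scaling was not computed. All 8 tested macrophage genes had a fold change below 0, with a median log2 fold change of −0.62, of which 0 were at an unadjusted p under 0.05 without the replicate block (2.43% of all genes) and 3 with it (7.02% of all genes).

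T cell markers summed to between 12.6 and 24.0 FPKM in greenish grey and between 5.27 and 15.9 FPKM in golden libraries, and B cell markers to between 6.81 and 12.3 and between 4.28 and 7.66 FPKM. Medians of their tested genes were −0.61 and −0.59 on the log2 scale. Endothelial markers, for cells that carry atypical receptors and present chemokines in mammals, had 18 tested genes, all with a fold change below 0, and a median of −0.45. They summed to between 121 and 139 FPKM in greenish grey and between 86.5 and 102 FPKM in golden libraries, without overlap in FPKM. The TMM factors of 0.751 and 1.15 would raise the sum of golden library 1 (91.4 FPKM) and lower that of greenish grey library 3 (121 FPKM). The lack of overlap in FPKM therefore cannot be taken to hold after TMM scaling, which was not computed for the sum of these endothelial genes. At an unadjusted p under 0.05, 1 of these genes was lower (2.43% of all genes) without the block and 5 with it (7.02% of all genes), the former being cadherin-5 LOC113106188, with −1.61 ± 0.32 (SE). Muscle markers had a median of 1.21, and epidermis markers of 0.02. Of 67 tested muscle genes, 62 lay above 0 and 5 below. At an unadjusted p under 0.05, 6 were higher (1.98% of all genes) and 1 was lower (2.43% of all genes). With the block these counts were 22 (5.95% of all genes) and 2 (7.02% of all genes). Of 41 tested epidermis genes, 1 was higher and 3 were lower at that p, and 7 and 13 with the block, against the same shares. Erythrocyte markers had a median of 0.25, and of 1.07 with the replicate block. Some of these lists also changed with the library number. Erythrocyte markers summed to 34491, 3226 and 1648 FPKM in greenish grey and 26731, 14723 and 2875 FPKM in golden libraries. Epidermis markers summed to 4457, 12495 and 9824 FPKM in greenish grey and 2213, 7875 and 13168 FPKM in golden libraries. In both colours erythrocyte markers were lowest in the library numbered 3, and epidermis markers lowest in that numbered 1. The part of these cell types in the chemokine results was not tested.

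Chemokine receptors signal through a shared set of G proteins, kinases and adaptors. Of 72 listed G protein, kinase, arrestin and related genes, 45 were tested, 35 with a fold change below 0 (46.8% of all genes were), and the median log2 fold change was −0.18. At an unadjusted p under 0.05, 1 was lower (2.43% of all genes) and 0 higher, the lower gene being the phosphoinositide 3-kinase regulatory subunit 5 gene LOC113097794, with −0.62 ± 0.21 (SE). With the replicate block 6 were lower (7.02% of all genes) and 0 higher. In all 3 numbered pairs, 18 were lower in golden skin (20.0% of all genes) and 1 was higher (19.5% of all genes). The listed sums were 284, 429 and 472 FPKM in greenish grey and 178, 346 and 485 FPKM in golden libraries, overlapping between the colours.

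**Figure D4:**
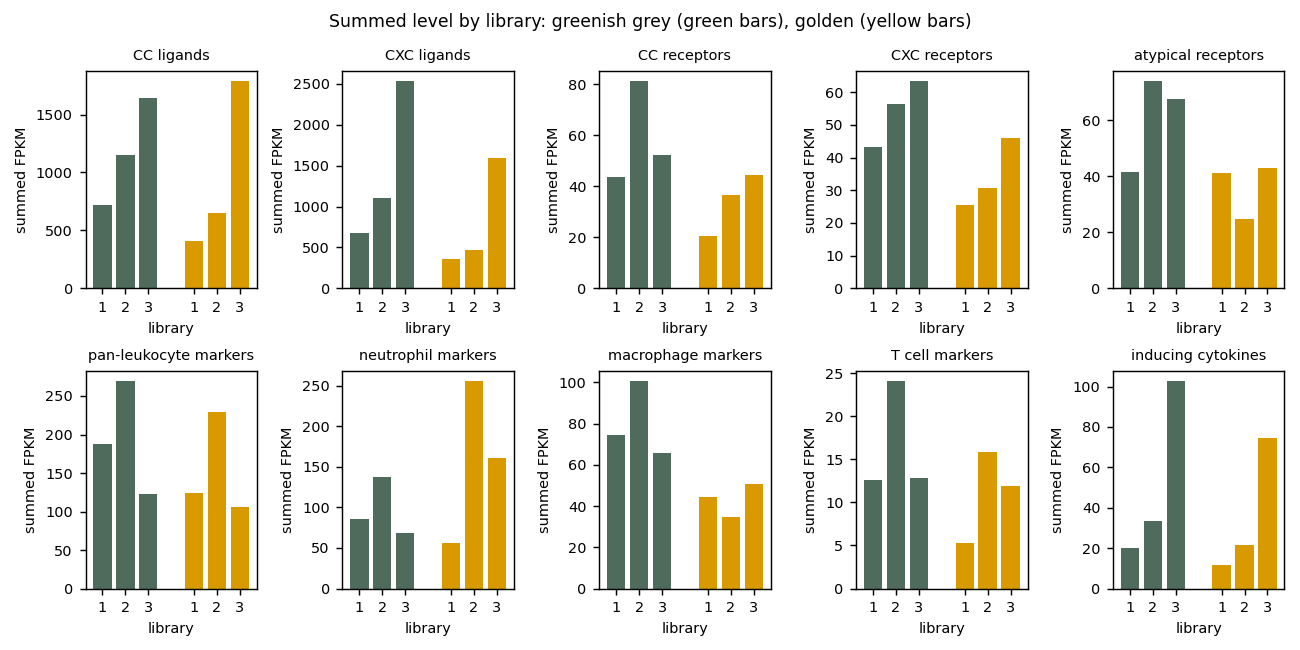
Summed FPKM in each library for the chemokine and receptor roles (top row) and for leukocyte markers and listed cytokines (bottom row). Greenish grey bars are on the left and golden bars on the right of each panel. The panel titled inducing cytokines holds the listed cytokine genes, interleukin-10 among them. CXC ligands run from 671 to 2536 FPKM in greenish grey and from 354 to 1599 FPKM in golden libraries, with both libraries numbered 3 highest, as for the cytokines. Pan-leukocyte markers are highest in both libraries numbered 2.

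Summed over all 182 members, the family reached 1515, 2459 and 4366 FPKM in greenish grey and 848, 1209 and 3522 FPKM in golden libraries. The golden sum was lower than the greenish grey sum of the same number in all 3 pairs, while both sums differed more between library numbers than between the colours. The CC receptors summed to 43.5, 81.3 and 52.3 FPKM in greenish grey and to 20.5, 36.8 and 44.4 FPKM in golden libraries. These sums overlapped in FPKM through golden library 3 and greenish grey library 1, whose TMM factors were 1.15 and 0.916. That correction would lower the former sum and raise the latter, and overlap after it was not computed for these sums. The CXC receptors summed to 43.4, 56.3 and 63.5 FPKM and to 25.5, 30.7 and 46.0 FPKM, and the atypical receptors to 41.5, 74.0 and 67.7 FPKM and to 41.1, 24.6 and 42.9 FPKM.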

How the data were processed

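Skin messenger RNA of 3 golden and 3 greenish grey libraries was analysed, which per the labels were made with a SMARTER mRNA-seq kit. Groups and replicate numbers come from the library titles. The deposited table holds a raw count and an FPKM value per gene and library. The authors' FPKM was 0.0001 at all 237173 zero counts and was set to 0 here. Aligner, counter, strand use and treatment of reads with several matches are not given in the sources used here. The submitters' processing notes name the mouse builds GRCm38 and mm10, whereas the gene rows are those of goldfish RefSeq on ASM336829v1 (177 of 182 members had the same ID and start there), whose coordinates are used. No sequences were used here.

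Counts as deposited were tested with edgeR 4.0.16 (R 4.3.3, glmQLFit and glmQLFTest, two-sided, TMM, library sizes from all gene rows) over the 26421 genes whose mean reached 1 FPKM, with Benjamini-Hochberg adjustment over all of them. The SE is the log2 fold change divided by the square root of F. The fit was tested on simulated data. The members and gene lists were chosen with earlier results of these data known. Named members are the 10 most abundant, those at an unadjusted p under 0.05 with or without the block, the most abundant of each role, and the SDF-1, CXCR4, ACKR3, IL-8, CCL19, CCL21, CCL25 and CCR7 genes. Genes of other lists were named at an unadjusted p under 0.05. Overlap between colours refers to counts after TMM scaling for single genes. For sums over a list or role it refers to FPKM, which has no TMM scaling.

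As a check of pairing, deviations from the mean of each colour were correlated between the golden and the greenish grey library of a number. The correlations were 0.732 for number 1, 0.267 for number 2 and 0.732 for number 3, and between unlike numbers they ran from −0.733 to 0.0774. Centring on the mean of a colour ties the correlations of unlike numbers to those of like numbers, so they are no independent contrast. The labels do not say what a number stands for, and these values cannot show whether it marks a fish. Alternatives were the replicate block, DESeq2 1.42.0, RLE scaling, limma 3.58.1 on log2(FPKM + 1) or log2(FPKM + 0.1), no filter, a mean of at least 5 FPKM, scaling without muscle and erythrocyte genes, and leaving out each library.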

Additional observations from a re-analysis of the deposited data

How the results depend on the processing

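The median log2 fold change of the tested members stayed below 0 under all 14 alternatives fixed at the outset, and the range over the left-out libraries was −0.92 to −0.31, lowest without golden replicate 3 and highest without greenish grey replicate 3. The median of all genes moved to −0.10 and −0.14 in limma on log2(FPKM + 1) and log2(FPKM + 0.1), and the member medians there were −0.52 and −0.75. The count at an adjusted p under 0.05 was 0 in edgeR and limma and 1 in DESeq2. The count of members past 2-fold at an unadjusted p under 0.05, 4 as reported, was 10 with the replicate block, 7 with limma on log2(FPKM + 0.1), 0 with a mean of at least 5 FPKM (34 members tested) and 2 to 6 without single libraries. In the blocked fit without pair 1, 2 or 3, added after seeing the data, it was 12, 6 and 14. The shares of all genes past 2-fold were computed only for the fits with and without the replicate block on all libraries. The causes were not tested.

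Of the 46 named members, 25 kept their direction under every alternative that could be run for them. Outside the left-out libraries, 4 changed sign: IL-8 LOC113105291 (−0.0703 and −0.109 in limma with 1 and 0.1 added), IL-8 LOC113105290 (−0.74 with the replicate block, −0.74 and −0.94 in limma), SDF-1 LOC113065054 (−0.0282 and −0.0578 in limma) and CXCR4-B LOC113053577 (0.00973 without a filter). Leaving out single libraries changed the sign of 21 of them. For the CC ligands, log2 fold changes then ranged from −0.63 to 0.26 for CCL21 LOC113110753, −2.60 to 1.04 for CCL19 LOC113068080, −4.43 to 9.68 for CCL19 LOC113068081, −2.21 to 2.63 for CCL19 LOC113054157, −0.52 to 0.0832 for CCL28 LOC113115494, −0.62 to 0.25 for CCL25 LOC113045272 and −0.11 to 1.04 for CCL25 LOC113078693. For CXCL10 they ranged from −1.85 to 0.16 for LOC113044067 and −2.09 to 0.58 for LOC113044049. For IL-8 they ranged from −2.24 to 0.68 for LOC113105970, −0.87 to 1.11 for LOC113105291, −1.53 to 0.68 for LOC113105290, −2.75 to 0.62 for LOC113044779, −0.0487 to 2.17 for LOC113079125, −1.71 to 0.60 for LOC113077722 and −0.43 to 1.62 for LOC113079120. For SDF-1 they ranged from −0.53 to 0.47 for LOC113039965 and −0.56 to 1.23 for LOC113065054. For receptors they ranged from −1.54 to 0.34 for CXCR3 LOC113116396, −0.46 to 0.31 for CXCR4-B LOC113053577 and −0.25 to 0.71 for ACKR3 LOC113050746. Of the 7 members at an unadjusted p under 0.05, 5 were above it in at least 1 alternative. Without the filter on low values, 150 members were tested, 109 of them with a fold change below 0, and the median was −0.53. For a gene at 0 counts in a library the fitted fold change depends on the prior count.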
